A study of Homo sapiens with 10 samples.

Results

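CBP30 and I-CBP112, both inhibitors of the CREBBP/EP300 bromodomains, were compared directly at 5 µM, without DMSO in the contrast. The comparison used 4 of the 10 RNA-seq samples of the study, 2 with CBP30 and 2 with I-CBP112, and covered 12392 of the 23284 genes listed, those whose FPKM averaged 0.5 or more across all 10 samples and that had no small RNA name (MIR, SNOR, SCARNA or RNU). FPKM scales a gene's fragments by transcript length and by the size of the library. K562, an established cell line from a patient with chronic myelogenous leukemia that expresses embryonic and fetal globins, was treated for 48 h in every group: with vehicle (DMSO), with CBP30 at 2 or 5 µM, or with I-CBP112 at 2 or 5 µM. Each of the 5 conditions had 2 biological replicates, polyadenylated RNA was sequenced as stranded single reads, and the values hold no read counts, so that depth is unknown. All 10 markers of K562 cells chosen as a check were expressed in every sample, between 2.25 and 630.3 FPKM, and 5 of 16 markers of other cells (CD2, MS4A1, KRT5, KRT14 and CDH5) were listed at 0 in all samples. Of the other 11, EPCAM, LYZ, PTPRC and CD3D reached 59.7, 52.1, 29.0 and 27.3 FPKM, and the sum over the 16 ranged from 132 to 138 FPKM in the 5 µM CBP30 samples and from 144 to 147 in those with 5 µM I-CBP112. Whether those 4 genes come from K562 cells was not tested. Just above the minimum were MGC16275 (mean 0.5005 FPKM) and SLC29A4 (0.5011), and just below it SLC6A13 (0.4997) and ZIC1 (0.4999).

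CREBBP and EP300 are histone acetyltransferases that transcription factors recruit to enhancers and promoters, where they acetylate histones. Their bromodomain, a small domain that binds acetylated lysine, helps to hold them on chromatin, and both compounds occupy it. BET proteins carry bromodomains of a related kind. In erythroid cells GATA1, TAL1, LMO2 and KLF1 act together on globin, heme and red cell membrane genes, while MYC drives the genes of ribosome assembly and growth.

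At the same concentration many genes differed in level between the compounds. With CBP30, 2396 genes were lower than with I-CBP112 (19.3% of the genes tested) and 1842 were higher (14.9%), together 34.2%, at a Benjamini-Hochberg adjusted p under 0.05 in limma. Most of the differences were small: the median log2 difference was -0.43 among the lower genes, 0.39 among the higher genes and -0.015 over all genes tested. Differences beyond 1 on the log2 scale were found for 123 lower and 72 higher genes. All log2 differences are of FPKM + 1, CBP30 minus I-CBP112, a scale on which the change of weakly expressed genes looks smaller than it is, and values after ± are standard errors of the fit with 2 samples per group. The p-values rest on a spread between replicates that all 10 samples share in the fit, and not on the samples compared alone. An exact two-sided permutation test of 2 against 2 samples cannot go below 0.333 for a single gene. Every called gene had 2 CBP30 samples on one side of both I-CBP112 samples, as did 80.6% of all genes tested.

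**Figure D1:**
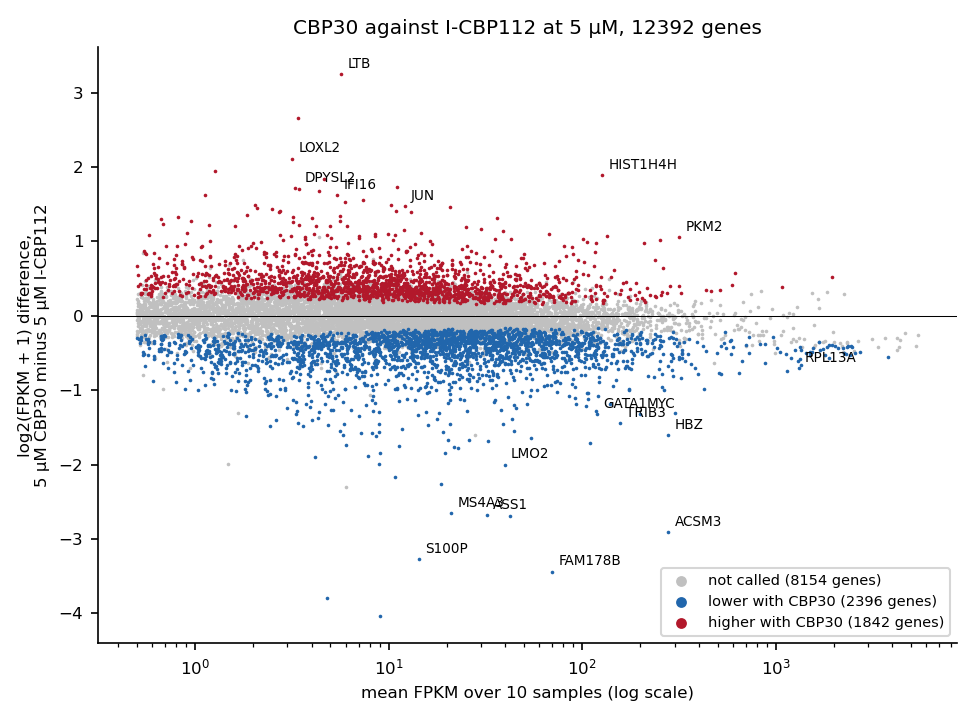
Difference between 5 µM CBP30 and 5 µM I-CBP112 (log2 of FPKM + 1, vertical) against the mean FPKM over 10 samples (log scale, horizontal), 1 point per gene tested. Blue points mark 2396 genes called lower with CBP30, red points 1842 called higher and grey points those not called; most calls lie within 1 of zero at every level, and the farthest labelled points are FAM178B below and LTB above.

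The number of genes called rested on the spread that all 10 samples shared in the fit. Replicate 1 of 2 µM CBP30, which is not in the contrast, stood apart from its partner (short transcripts high, EEF1A1 listed at 0). Without it 3834 genes were lower and 3220 higher, and without replicate 2 of that group 3833 and 3214. Without replicate 1 or 2 of 5 µM CBP30 the counts fell to 1309 and 845 or to 1250 and 790, and without replicate 1 or 2 of 5 µM I-CBP112 to 1242 and 867 or to 1356 and 846. No gene was called in the opposite direction in any of these fits, but they could hardly show a reversal. Leaving out a 2 µM sample does not change the difference at 5 µM, and the other fits keep most of the same 4 samples.

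The difference also followed transcript length. Its median was -0.15 in the shortest quintile of the genes with a known length and 0.14 in the longest. The lower genes had a median transcript length of 2504 bases and the higher genes one of 4222, against 3159 bases for all genes tested. Both CBP30 samples carried this trend and the I-CBP112 samples did not, so that a property of the CBP30 libraries and an effect of CBP30 on short transcripts cannot be told apart. With the trend removed from each sample, 2631 genes were lower (22.4% of the 11750 genes with a length) and 2487 higher (21.2%), and these held 2080 of the genes called lower and 1630 of those called higher without the correction.

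**Figure D2:**
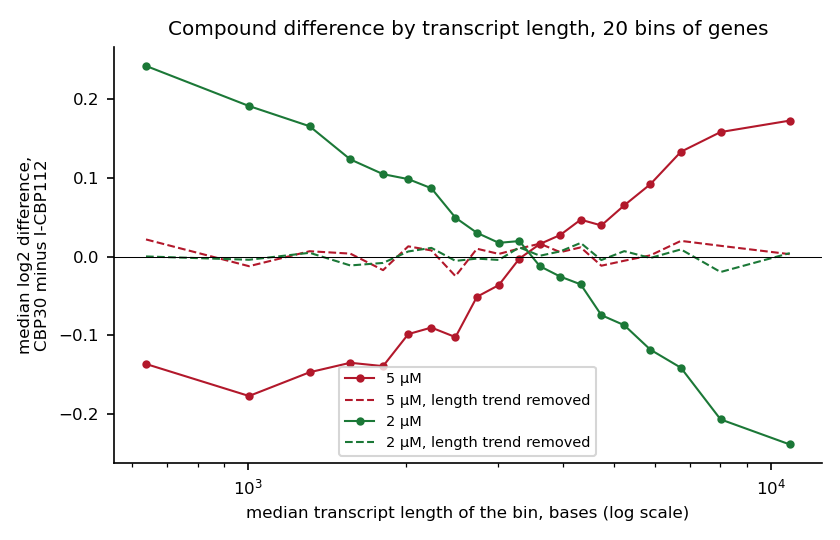
Median log2 difference between CBP30 and I-CBP112 (vertical) in 20 bins of genes ordered by transcript length (median bases of each bin, log scale, horizontal), at 5 µM (red) and 2 µM (green), before (points) and after (dashed) removal of the length trend. The uncorrected lines run in opposite directions at the 2 concentrations, and the corrected lines stay near zero.

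The 12 largest falls by a naming rule had DMSO samples from BMX at 5.91 to ACSM3 at 471 FPKM. The rule is: called, at least 5 FPKM in the higher group, samples not overlapping, and called in the same direction after the length correction. It passed over 3 larger falls and 4 larger rises, 5 of these 7 genes for want of a transcript length and 2 for under 5 FPKM. The DMSO range is therefore set in part by the rule. LOC283214 (-3.79) and SNAR-H (-4.04), both passed over for want of a length, fell further than any gene named here. LOC283214 was listed at 0 in both DMSO samples and SNAR-H in 1 of them. FAM178B was at 7.27 and 6.802 FPKM with CBP30 and at 85.2 and 87.2 FPKM with I-CBP112. Its DMSO samples were at 104 and 99.9 FPKM, so I-CBP112 left the gene near its vehicle level while CBP30 samples were far below (-3.44 ± 0.071, adjusted p = 6.00e-08). ASS1, the argininosuccinate synthase of arginine synthesis, was at 4.99 and 4.52 FPKM with CBP30 and at 36.1 and 35.7 FPKM with I-CBP112. The groups were again well apart (-2.68 ± 0.064, adjusted p = 7.55e-08), with DMSO at 50.9 and 50.7 FPKM. ACSM3, a mitochondrial acyl-CoA synthetase, was at 46.0 and 43.7 FPKM with CBP30 and at 348 and 339.8 FPKM with I-CBP112. It was among the most highly expressed of these genes, with DMSO at 454 and 471 FPKM, and differed by -2.91 ± 0.069 (adjusted p = 7.55e-08).

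The stretch before the start of FAM178B holds the E-box CACGTG, the sequence bound by MYC with MAX and by related factors, at 3 places and that of ASS1 at 1. Both are shown with the promoter of INSIG1, a gene of the cholesterol list below that was higher with CBP30, because it holds the same letters. The 3 genes are examples, and how many of the other large falls hold CACGTG is not reported here. The 100 bases before the annotated start of each gene are given 5′ to 3′ on the gene's strand, with CACGTG in capitals, from the GRCh37 genome with GENCODE starts: FAM178B at chr2:97652318-97652417 on the minus strand, ASS1 at chr9:133320248-133320347 on the plus strand and INSIG1 at chr7:155089488-155089587 on the plus strand.
FAM178B: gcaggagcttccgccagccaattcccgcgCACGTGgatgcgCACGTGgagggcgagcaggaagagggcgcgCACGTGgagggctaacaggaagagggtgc
ASS1: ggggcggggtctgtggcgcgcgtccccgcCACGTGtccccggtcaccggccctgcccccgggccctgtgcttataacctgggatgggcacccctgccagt
INSIG1: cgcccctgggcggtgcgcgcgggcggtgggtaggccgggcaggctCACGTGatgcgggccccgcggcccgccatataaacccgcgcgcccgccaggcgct
Counted to their first base, the matches start 71, 59 and 29 bases before the start of FAM178B, 71 bases before that of ASS1 and 55 bases before that of INSIG1. CACGTG, which reads the same on both strands, was found within 250 bases before to 50 after the start in 10.4% of the 11749 tested genes with a promoter, in 14.3% of the genes lower with CBP30 and in 8.53% of the higher ones. CACGTG and the CRE share the core ACGT and can overlap at their ends, but neither holds the other. Of the other motifs, searched on both strands, the CRE TGACGTCA was in 3.61% of all, 3.90% of the lower and 3.31% of the higher genes, the GATA sequence AGATAA in 4.66%, 5.38% and 4.21%, and the E2F sequence GCGCGAAA in 0.945%, 0.824% and 1.01%. The lower genes also had higher levels, with a median of 18.6 FPKM against 9.24 for the higher genes and 11.8 for all, and the part of level in these shares was not tested. A match describes letters in a window and not a bound site.

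Myeloid genes stood beside them. S100P, a calcium-binding protein, was at 0.225 and 0.482 FPKM with CBP30 and at 12.8 and 11.2 FPKM with I-CBP112. Both compounds left it below the DMSO samples (30.2 and 32.2 FPKM), CBP30 far more so (-3.27 ± 0.11, adjusted p = 7.00e-07). MS4A3, a membrane protein of myeloid progenitors, was at 2.29 and 1.98 FPKM with CBP30 and at 18.0 and 19.5 FPKM with I-CBP112 (-2.65 ± 0.077, adjusted p = 3.06e-07). PRG2, the major basic protein of eosinophil granules, was at 0.883 and 0.776 FPKM with CBP30 and at 4.71 and 3.43 FPKM with I-CBP112, and its difference was -1.46 ± 0.14 (adjusted p = 0.000147). Of 14 myeloid genes tested, 7 were lower with CBP30 and 0 higher, beside 19.3% and 14.9% of all genes. With the length trend removed the counts were again 7 and 0. Fewer were called lower when any 1 of the samples at 5 µM was left out. Without either replicate of 2 µM CBP30 more were called lower, as over all genes.

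The other large falls also had CBP30 samples below both I-CBP112 samples, which the naming rule requires. GLT25D2, a collagen galactosyltransferase, differed by -2.69 ± 0.13, AKNA, an AT-hook protein, by -1.99 ± 0.097, and GRAP2, an adaptor of receptor signalling, by -1.88 ± 0.084. BMX, a Tec family tyrosine kinase, was at 0.827 and 1.00 FPKM with CBP30 and at 5.85 and 6.40 FPKM with I-CBP112. I-CBP112 samples of BMX lay around the DMSO samples (6.02 and 5.91 FPKM), and its difference was -1.90 ± 0.082 (adjusted p = 2.67e-06). G0S2, an inhibitor of the triglyceride lipase ATGL, differed by -1.85 ± 0.12.

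The 12 largest rises by the same rule were in genes at 25.5 FPKM or less with DMSO, HIST1H4H being the highest of them. For rises the minimum of 5 FPKM applies to the CBP30 samples. LTB, the tumor necrosis factor family member lymphotoxin beta, was at 17.7 and 18.9 FPKM with CBP30 and at 1.31 and 0.777 FPKM with I-CBP112. DMSO samples of LTB were at 0.800 and 0.341 FPKM, so that the samples with I-CBP112 lay near vehicle and those with CBP30 alone were high (3.25 ± 0.28, adjusted p = 8.80e-05). LOXL2, a lysyl oxidase of the extracellular matrix, was at 10.3 and 9.89 FPKM with CBP30 and at 1.67 and 1.46 FPKM with I-CBP112 (2.11 ± 0.079, adjusted p = 9.65e-07). Both compounds placed LOXL2 above DMSO (0.480 and 0.536 FPKM), CBP30 higher than I-CBP112. IFI16, an interferon-inducible DNA sensor, was at 13.0 and 13.2 FPKM with CBP30 and at 3.79 and 3.39 FPKM with I-CBP112 (1.62 ± 0.08, adjusted p = 4.30e-06).

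SMARCA1, an ISWI chromatin remodelling ATPase, was at 16.3 and 16.5 FPKM with CBP30 and at 4.95 and 4.83 FPKM with I-CBP112. It differed by 1.56 ± 0.087 (adjusted p = 8.04e-06). IL6ST, the gp130 receptor subunit of interleukin 6 family cytokines, was at 23.1 and 23.7 FPKM with CBP30 and at 7.57 and 7.83 FPKM with I-CBP112 (1.49 ± 0.13, adjusted p = 8.28e-05). DPYSL2, a regulator of the cytoskeleton known from neurons, differed by 1.71 ± 0.084, TMSB15A, an actin-binding thymosin, by 1.49 ± 0.17, SAT2 by 1.73 ± 0.14 and the pseudogene SIGLECP3 by 1.68 ± 0.089. GNG8, a G protein gamma subunit, was the least certain: it was at 7.64 and 9.10 FPKM with CBP30 and at 3.001 and 1.01 FPKM with I-CBP112, and its difference (1.72 ± 0.39, adjusted p = 0.0103) was not called without replicate 2 of 5 µM CBP30 (adjusted p = 0.0700), without replicate 2 of 5 µM I-CBP112 (adjusted p = 0.0802) or with a pseudocount of 0.1 (2.18 ± 0.97, adjusted p = 0.113).

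**Figure D3:**
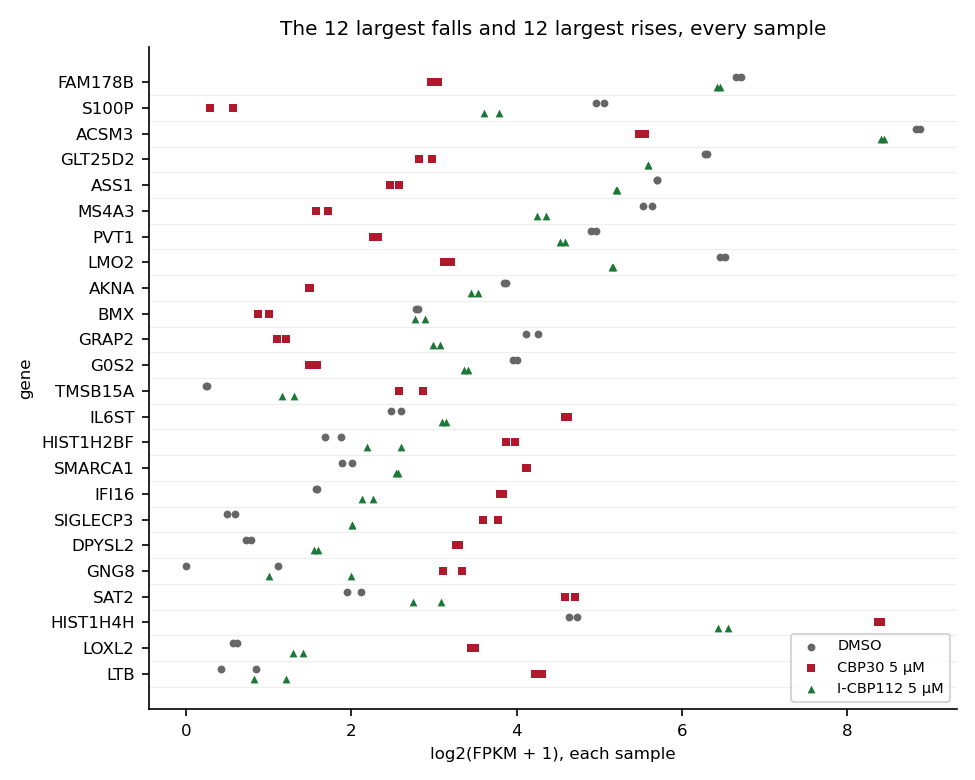
Level of the genes with the 12 largest falls and 12 largest rises by the naming rule (log2 of FPKM + 1, horizontal), 1 symbol per sample: DMSO (grey circles), 5 µM CBP30 (red squares) and 5 µM I-CBP112 (green triangles). For each of the 24 genes both red squares lie on one side of both green triangles, as the naming rule requires.

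Erythroid transcription factor, globin and red cell membrane genes were mostly lower with CBP30 than with I-CBP112, heme synthesis and iron genes less often. Of 20 erythroid transcription factors tested 11 were lower and 2 higher, with a median difference of -0.48 (15 and 2 after the length correction). For this and every list below, the shares over all genes tested were 19.3% lower and 14.9% higher. After the length correction these shares were 22.4% and 21.2%. GATA1, the main erythroid factor, was at 53.5 and 52.7 FPKM with CBP30 and at 139 and 130.0 FPKM with I-CBP112. With DMSO GATA1 was at 169.7 and 171 FPKM, so that I-CBP112 samples were nearer to vehicle than CBP30 samples (-1.32 ± 0.096, adjusted p = 3.45e-05). LMO2, the adaptor that joins GATA1 to TAL1, was at 8.23 and 7.69 FPKM with CBP30 and at 34.9 and 34.7 FPKM with I-CBP112. Its DMSO samples at 90.4 and 86.7 FPKM were above both compounds (-2.00 ± 0.074, adjusted p = 9.65e-07).

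KLF1, the activator of the adult beta-globin gene, was at 8.40 and 8.49 FPKM with CBP30 and at 29.8 and 29.0 FPKM with I-CBP112, a difference of -1.69 ± 0.13 (adjusted p = 4.39e-05). GFI1B, a repressor needed for erythroid and megakaryocyte growth, differed by -1.67 ± 0.088, the corepressor CBFA2T3 by -1.39 ± 0.058 and NFE2, the larger subunit of the factor NF-E2, by -1.24 ± 0.096. MYB, a progenitor factor, was at 87.3 and 88.3 FPKM with CBP30 and at 122 and 129 FPKM with I-CBP112. I-CBP112 left MYB around its DMSO level (124 and 124 FPKM), and CBP30 samples were lower (-0.51 ± 0.059, adjusted p = 0.000364). TAL1 moved against the others, with 23.4 and 24.2 FPKM with CBP30 and 17.5 and 17.9 with I-CBP112 (0.40 ± 0.067, adjusted p = 0.00222).

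All 7 globin genes called among 8 tested were lower with CBP30, with a median over the 8 of -0.83. HBZ, the embryonic zeta-globin, was at 80.7 and 88.4 FPKM with CBP30 and at 276 and 244 FPKM with I-CBP112 (-1.61 ± 0.18, adjusted p = 0.000317), against 630.3 and 589 FPKM with DMSO. Some globin genes are near-identical copies, between which reads may have been split. Between 2 and 5 globin genes were called when 1 of the 4 samples at 5 µM was left out. Red cell membrane and blood group genes were lower in 12 of 23 and higher in 0, with GYPC, glycophorin C, at -0.997 ± 0.11 and ADD2, beta-adducin, at -1.40 ± 0.087. Heme synthesis held 4 lower genes and 1 higher of 12, beside 19.3% lower and 14.9% higher over all genes. UROD, the uroporphyrinogen decarboxylase, differed by -1.0 ± 0.11, and ALAD, the second enzyme of the pathway, by 0.58 ± 0.065. Heme synthesis genes lower with CBP30 were 8 without either replicate of 2 µM CBP30 and between 1 and 2 without 1 sample at 5 µM. Iron uptake, storage and export genes were mixed, with 6 lower, 3 higher and 7 not called of 16 (median -0.053), and without 1 sample at 5 µM between 2 and 3 were lower and between 1 and 2 higher. Without either replicate of 2 µM CBP30 these were 7 lower and 5 higher. Of this list TFR2, transferrin receptor 2, differed by -1.13 ± 0.074.

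MYC, the growth regulator, was at 81.7 and 80.9 FPKM with CBP30 and at 209.6 and 201 FPKM with I-CBP112. Its DMSO samples were at 338 and 320.1 FPKM, and both compounds were lower, CBP30 by more (-1.32 ± 0.061, adjusted p = 3.89e-06). PVT1, the long noncoding RNA gene beside MYC, was at 3.78 and 4.003 FPKM with CBP30 and at 22.0 and 23.1 FPKM with I-CBP112 (-2.27 ± 0.09, adjusted p = 1.39e-06). Of 12 genes of MYC and the MAX network 7 were lower and 1 higher, beside 19.3% and 14.9% of all genes. Fewer were called lower without any 1 of the samples at 5 µM.

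Genes for making ribosomes were lower as a group. Ribosome biogenesis genes were lower in 31 of 40 and higher in 0, with a median of -0.47, and lower in 35 of 39 with the length trend removed. Over all genes 19.3% were lower and 14.9% higher. NOB1, a nuclease of small subunit maturation, was at 51.1 and 49.3 FPKM with CBP30 and at 99.3 and 97.2 FPKM with I-CBP112 (-0.96 ± 0.065, adjusted p = 2.37e-05), and NOP16, a nucleolar protein, differed by -0.91 ± 0.084. Cytosolic ribosomal protein genes were lower in 39 of 83 and higher in 1 (median -0.40). RPL13A, of the large subunit, was at 861 and 856 FPKM with CBP30 and at 1382 and 1405 FPKM with I-CBP112. The groups did not overlap (-0.70 ± 0.14, adjusted p = 0.00632), but the call was lost without replicate 2 of 5 µM CBP30 (adjusted p = 0.0503).

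The count of ribosomal protein genes depended strongly on single samples: 77 were lower without either replicate of 2 µM CBP30, between 22 and 28 without a DMSO or a 2 µM I-CBP112 sample, and between 3 and 5 without 1 of the 4 samples at 5 µM. With the length trend removed it was 66 of 83. Mitochondrial ribosomal protein genes were lower in 38 of 76 and higher in 1, with MRPS30 at -0.70 ± 0.088, and lower in 60 without either replicate of 2 µM CBP30 and in 18 to 23 without 1 sample at 5 µM. Many of these genes have processed pseudogenes that can share reads. Oxidative phosphorylation genes gave 8 lower and 0 higher of 75 but 13 lower and 14 higher of 74 after the length correction, so that no direction held for them. Without either replicate of 2 µM CBP30 they were 38 and 6, and without 1 sample at 5 µM between 1 and 4 were lower and 0 higher.

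Amino acid genes under the stress factor ATF4 and aminoacyl-tRNA synthetase genes were mostly lower with CBP30 than with I-CBP112. Of 27 genes of the ATF4 response and serine synthesis 22 were lower and 1 higher (25 and 1 of 26 with the length trend removed). Their median was -0.54, and over all genes 19.3% were lower and 14.9% higher. ASNS, asparagine synthetase, was at 242 and 228 FPKM with CBP30 and at 476 and 458 FPKM with I-CBP112. Its I-CBP112 samples lay around those with DMSO, 459 and 462 FPKM, and both CBP30 samples were below (-0.99 ± 0.079, adjusted p = 5.66e-05). TRIB3, a pseudokinase induced by ATF4, was at 65.3 and 63.9 FPKM with CBP30 and at 183 and 171 FPKM with I-CBP112 (-1.44 ± 0.10, adjusted p = 3.52e-05). STC2, a secreted glycoprotein, differed by -1.13 ± 0.085 and DDIT4, an inhibitor of mTORC1, by -0.96 ± 0.10.

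Against DMSO the median of the 27 genes was -0.51 for 5 µM CBP30 and 0.01 for 5 µM I-CBP112, values that share the DMSO samples. Of 23 aminoacyl-tRNA synthetase genes 20 were lower and 0 higher (median -0.48), led by WARS, the tryptophanyl-tRNA synthetase, which was at 207 and 197 FPKM with CBP30 and at 368 and 353 FPKM with I-CBP112 (-0.84 ± 0.066, adjusted p = 5.53e-05). Purine and polyamine synthesis genes were lower in 12 of 19 and higher in 1, with IMPDH2, the enzyme that commits purines to guanine nucleotides, at -0.71 ± 0.095, and lower in 8 without 1 sample at 5 µM.

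Sterol genes were mostly higher with CBP30 than with I-CBP112. Of 24 cholesterol synthesis and uptake genes 14 were higher and 1 lower (17 and 0 after the length correction), with a median of 0.31. INSIG1, the sterol sensor of the SREBP system whose promoter is shown above, was at 45.5 and 48.3 FPKM with CBP30 and at 26.1 and 25.2 FPKM with I-CBP112. Both CBP30 samples were above all others, DMSO at 19.5 and 19.98 FPKM included (0.84 ± 0.062, adjusted p = 3.58e-05). LSS, lanosterol synthase, differed by 0.80 ± 0.072. Of 15 fatty acid synthesis genes 5 were higher and 2 lower, and over all genes 14.9% were higher and 19.3% lower. Fewer of the 15 were called higher without any 1 sample at 5 µM. SCD, the stearoyl-CoA desaturase, differed by 0.61 ± 0.085. At 2 µM 1 of the 15 was higher and 4 were lower (median -0.15), and SCD differed by -0.24.

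Xenobiotic genes were higher in 7 of 9 tested and lower in 0 (median 0.42), and 3 were called without 1 sample at 5 µM. NQO1, a quinone reductase, was at 64.6 and 68.1 FPKM with CBP30 and at 30.7 and 28.1 FPKM with I-CBP112 (1.15 ± 0.089, adjusted p = 4.68e-05). CYP1A1, the classical target of the aryl hydrocarbon receptor, was low, at 3.71 and 3.12 FPKM with CBP30 and 2.08 and 1.87 with I-CBP112 (0.57 ± 0.098, adjusted p = 0.00273). CYP3A5, a drug-metabolising cytochrome, differed by 0.71 ± 0.077. AHR, the receptor itself, differed by 0.50 ± 0.12 (adjusted p = 0.0112), and its call was lost without each of the 4 samples at 5 µM (adjusted p between 0.0613 and 0.0661).

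Replication-dependent histone genes had the highest median of the 44 lists. Of 46 tested 27 were higher with CBP30 and 2 lower, with a median of 0.69, and 30 of 42 were higher after the length correction. HIST1H4H, an H4 gene, was at 338 and 329 FPKM with CBP30 and at 93.1 and 85.3 FPKM with I-CBP112. I-CBP112 placed HIST1H4H above DMSO, 25.5 and 23.8 FPKM, and CBP30 above I-CBP112 (1.89 ± 0.072, adjusted p = 1.04e-06). HIST1H2BF differed by 1.53 ± 0.15 and the linker histone HIST1H1D by 1.31 ± 0.083. Messengers of these genes mostly end in a stem-loop without a poly(A) tail, so that a library of polyadenylated RNA measures only the tailed part, and near-identical copies may share reads. DNA replication genes gave 11 lower and 1 higher of 48, beside 19.3% and 14.9% of all genes, but 11 and 7 with the length trend removed and 9 and 5 after quantile normalization. Mitosis genes gave 3 lower and 3 higher of 41, and 2 and 5 with the length trend removed. Without replicate 1 of 2 µM CBP30 the replication genes were 19 and 8 and the mitosis genes 12 and 6, and without 1 sample at 5 µM between 4 and 6 replication genes and between 1 and 2 mitosis genes were lower.

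Whether the targets of the compounds themselves were called depended on the fit, and with all 5 groups they were not. CREBBP was at 9.10 and 8.67 FPKM with CBP30 and at 6.24 and 6.68 FPKM with I-CBP112, a difference of 0.41 ± 0.16 (95% interval 0.051 to 0.76, adjusted p = 0.0742). EP300 was at 10.7 and 10.2 FPKM with CBP30 and at 7.57 and 7.54 FPKM with I-CBP112, a difference of 0.42 ± 0.21 (95% interval -0.047 to 0.89, adjusted p = 0.145). The CBP30 samples were above the I-CBP112 samples for both genes. With the length trend removed CREBBP was called at 0.25 (adjusted p = 0.0326), and without replicate 1 of 2 µM CBP30 both were, with adjusted p = 0.000865 for CREBBP and 0.000255 for EP300. Both were also called without replicate 2 of that group (adjusted p = 0.000919 and 0.000281) and with only the groups compared (adjusted p = 0.000854 and 0.000398). Without any 1 of the samples at 5 µM neither was called, with adjusted p between 0.167 and 0.255 for CREBBP and between 0.285 and 0.349 for EP300.

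Of 19 lysine acetyltransferase genes 2 were lower, 2 higher and 15 not called (median 0.18), beside 19.3% lower and 14.9% higher over all genes. With the length trend removed 5 were lower and 5 higher. More were called both ways without replicate 1 of 2 µM CBP30. Of this list KAT2B differed by 0.72 ± 0.09. Of 11 genes of BET proteins and P-TEFb, the kinase that releases paused RNA polymerase II, 3 were higher and 0 lower (4 and 2 without either replicate of 2 µM CBP30). Among them HEXIM1, the P-TEFb inhibitor that rises when BET proteins are inhibited, was at 16.0 and 16.0 FPKM with CBP30 and at 10.8 and 10.5 FPKM with I-CBP112 (0.54 ± 0.072, adjusted p = 0.000731), and BRD2 differed by 0.32 ± 0.058. TET1, an enzyme that oxidises methylated DNA, was between 1.97 and 2.34 FPKM in the 4 samples and not called (0.12 ± 0.14, 95% interval -0.20 to 0.43). HMGA2 was below the minimum and was not tested.

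Cell cycle and survival genes moved in both directions. CCND1, cyclin D1, was at 0.673 and 0.750 FPKM with CBP30 and at 2.23 and 2.95 FPKM with I-CBP112 (-1.06 ± 0.098, adjusted p = 0.000119). CDKN1A, the p21 inhibitor of cyclin-dependent kinases, was at 17.0 and 18.3 FPKM with CBP30 and at 12.02 and 10.7 FPKM with I-CBP112. It differed by 0.60 ± 0.13 (adjusted p = 0.00780), a call lost without replicate 2 of either group (adjusted p = 0.0639 and 0.0650). BCL2L11 and PMAIP1, the death-promoting BH3 proteins BIM and NOXA, differed by 0.68 ± 0.075 and 0.55 ± 0.071, whereas BBC3, the BH3 protein PUMA, differed by -0.79 ± 0.13. TERT, the catalytic subunit of telomerase, was at 0.816 and 0.941 FPKM with CBP30 and at 2.15 and 2.16 FPKM with I-CBP112 (-0.75 ± 0.076, adjusted p = 0.000190).

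AP-1 genes split as well: JUN was at 24.5 and 24.7 FPKM with CBP30 and at 8.46 and 7.90 FPKM with I-CBP112. Its I-CBP112 samples were near DMSO, 7.09 and 7.93 FPKM, and CBP30 samples were higher (1.48 ± 0.11, adjusted p = 4.08e-05), while FOSL1, a partner of JUN, differed by -1.23 ± 0.13 (adjusted p = 0.000215). SOCS1 and SOCS2, feedback inhibitors of JAK-STAT signalling, differed by 0.80 ± 0.16 and 0.75 ± 0.063, and STAT5A, a transcription factor of that pathway, by -0.65 ± 0.07. ICAM1, an adhesion molecule, differed by 0.89 ± 0.055 and the MAP kinase phosphatase DUSP4 by 0.81 ± 0.074.

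A few genes were called against DMSO in opposite directions with the 2 compounds at 5 µM. Against DMSO, 5 µM CBP30 had 3347 lower genes (27.0%) and 2813 higher (22.7%), and 5 µM I-CBP112 had 461 lower (3.72%) and 543 higher (4.38%). With opposite directions there were 11 genes, 9 of them lower with CBP30 and higher with I-CBP112, and 23 genes with the length trend removed, 9 of which were among the 11. FCGR2A, an IgG receptor of myeloid cells, was at 17.8 and 17.0 FPKM with CBP30 and at 50.9 and 48.1 FPKM with I-CBP112, on either side of 37.9 and 39.6 FPKM with DMSO. The difference between the compounds was -1.46 ± 0.066 (adjusted p = 3.53e-06). FEV, an ETS transcription factor, was at 5.45 and 4.86 FPKM with CBP30 and at 16.8 and 16.5 FPKM with I-CBP112, around 10.2 and 9.06 FPKM with DMSO (-1.52 ± 0.12, adjusted p = 5.34e-05).

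ANXA3, an annexin, was at 6.62 and 5.61 FPKM with CBP30 and at 14.9 and 14.5 FPKM with I-CBP112, with DMSO between them at 9.21 and 10.2 (-1.15 ± 0.09, adjusted p = 5.03e-05). TMEM158 had the same order and differed by -0.95 ± 0.13. ECM1, an extracellular matrix protein, had the reverse order: it was at 16.5 and 17.1 FPKM with CBP30 and at 8.18 and 7.42 FPKM with I-CBP112, with DMSO at 11.7 and 11.7 (1.02 ± 0.069, adjusted p = 2.31e-05). With 2 µM CBP30, FEV, ANXA3 and ECM1 lay on the same side of DMSO as with 5 µM I-CBP112. Their log2 differences from DMSO in limma were 0.36, 0.34 and -0.52 (adjusted p = 0.045, 0.0181 and 0.000694). FCGR2A (0.0042) and TMEM158 (-0.24) were not called there (adjusted p = 0.965 and 0.162). The opposite calls for these genes were thus found with CBP30 at 5 µM and not at 2 µM. Replicate 1 of 2 µM CBP30, which stood apart, is part of these values.

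The same compounds were compared at 2 µM, in 4 other samples, so that 1 pair of compounds was compared at 2 concentrations. There 1304 genes were lower with CBP30 (10.5%) and 1136 higher (9.17%). Of the genes lower at 5 µM 686 were lower at 2 µM too, 28.6% of the first list and 52.6% of the second, and 24 were higher. Of those higher at 5 µM 505 were higher at 2 µM, 27.4% and 44.5% of the lists, and 19 were lower. Over all genes tested, Pearson's r between the differences at the 2 concentrations was 0.374, and 0.546 over the 11750 genes with the length trend removed. The genes share their libraries and the length trend, which ran the other way at 2 µM.

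The difference between the compounds differed between 5 and 2 µM in 1179 genes (9.51%) by the interaction test. FAM178B was at -1.13 ± 0.071 at 2 µM, against -3.44 ± 0.071 at 5 µM, and ASS1 at -0.66 ± 0.064 against -2.68 ± 0.064. GRAP2 and CCND1 differed by nearly the same amount at both concentrations, -1.67 ± 0.084 and -1.10 ± 0.098 at 2 µM, with interactions that were not called (adjusted p = 0.215 and 0.848). ASNS was at 0.086 ± 0.079 (adjusted p = 0.443), and of the 27 ATF4 and serine synthesis genes 4 were lower and 0 higher at 2 µM (8 and 2 of 26 with the length trend removed). SOCS1 had the larger value at 2 µM, 1.40 ± 0.16, with an interaction that was not called (adjusted p = 0.101). These values at 2 µM rest on the CBP30 sample that stood apart: without it 1591 genes were lower, 1314 higher and 2963 had a called interaction, and without replicate 2 of 2 µM CBP30 the counts were 3380, 3725 and 7176. Without replicate 1 of 2 µM I-CBP112 they were 302, 197 and 66, and without its replicate 2 365, 289 and 96. The interaction was called for 62 and 55 genes without replicate 1 and 2 of 5 µM CBP30, for 59 and 74 without those of 5 µM I-CBP112, and for 253 without either DMSO sample. The lower and higher counts at 2 µM were 792 and 622 without replicate 1 of 5 µM CBP30, 792 and 621 without its replicate 2, 806 and 645 without replicate 1 of 5 µM I-CBP112, 808 and 646 without its replicate 2, 810 and 655 without replicate 1 of DMSO, and 810 and 659 without its replicate 2.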

How the data were processed

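Polyadenylated RNA of K562 cells was sequenced in 5 conditions with 2 replicates each. The authors used the Nextpresso pipeline with the hg19 genome and deposited 1 FPKM value per gene and sample, without pooling. The submitters' processing notes name TopHat2 2.0.10, Bowtie 1.0.0, SAMtools 0.1.19, Cufflinks 2.2.1 and Cuffnorm.

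A limma 3.58.1 model (R 4.3.3, eBayes with trend) of log2(FPKM + 1) held all 5 groups, with 5 residual and 3.85 prior degrees of freedom. Adjusted p are Benjamini-Hochberg values over 12392 genes, of which 11750 (94.8%) had a GENCODE transcript length, 1149 by an older symbol or a synonym. The length correction subtracts a lowess trend (span 0.3) from each sample. In simulated data with 200 genes changed by 1 for the 5 µM comparison, 188 were called and 11 others. The simulated noise was independent and normal, without a length trend or a sample that stood apart. Most real differences were also smaller than 1, so these counts do not carry over to the real data. Promoters were read from GRCh37 at GENCODE starts, chosen after seeing that the RefSeq promoter table held 77.0% of the genes. Replicate numbers did not pair the samples: deviations of same-numbered samples correlated between -0.28 and 0.15, and at 0.056 for the groups compared.

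Named genes are the 12 largest falls and rises by the rule in the text and genes the study names. Up to 6 called genes per list, those with the largest differences, were also named (any member in lists of up to 12). A gene named from a list is therefore not a typical member. The 5 largest of those opposite against DMSO and 2 genes on each side of the minimum were added. Some genes that the rule covers are not reported here. Members and lists were chosen with earlier results of these data known. Alternatives changed the pseudocount (0.1), the filter (none, or a mean of 5 FPKM), the scaling (median or quantile), the eBayes trend, the groups fitted, the replicate block, length and GC trends, the genes kept and single replicates. Tables and figures used Python 3.11.15.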

Additional observations from a re-analysis of the deposited data

Results flagged for a closer look

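For 54 of the 86 genes named with a fitted difference, the difference between CBP30 and I-CBP112 was not the same at 5 µM and at 2 µM by the interaction term in limma (adjusted p between 2.87e-05 and 0.0496), 51 of them also with the length trend removed. The genes were mostly chosen on the difference at 5 µM, which is part of this value, so the share is a description. The values below are the log2 difference at 5 µM minus that at 2 µM, and all 54 have the sign of the difference at 5 µM, 5 of them with the opposite sign at 2 µM. Every one rests on 2 samples per group, 1 of which, replicate 1 of 2 µM CBP30, stood apart.

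Among the largest falls the value was -2.31 for FAM178B, -2.02 for ASS1, -1.87 for S100P, -1.55 for ACSM3, -1.35 for MS4A3, -1.20 for G0S2, -1.15 for GLT25D2, -1.09 for PVT1, -0.98 for BMX, -0.95 for AKNA and -0.70 for LMO2. Among the largest rises it was 1.34 for HIST1H2BF, 1.19 for LOXL2, 1.13 for IL6ST, 0.73 for IFI16, 0.61 for DPYSL2, 0.56 for HIST1H4H, 0.49 for SMARCA1 and 0.48 for SIGLECP3. For genes called in opposite directions against DMSO it was -1.35 for FEV, -1.10 for FCGR2A, -1.06 for ANXA3 and 1.14 for ECM1.

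In the erythroid and MYC groups it was -0.96 for KLF1, -0.87 for GYPC, -0.82 for GFI1B, -0.72 for GATA1, -0.72 for CBFA2T3, -0.65 for UROD, -0.65 for MYC, -0.31 for MYB and 0.38 for TAL1. Ribosome and amino acid genes gave -1.25 for TRIB3, -1.07 for ASNS, -0.91 for RPL13A, -0.85 for NOB1, -0.76 for STC2, -0.64 for DDIT4, -0.63 for NOP16, -0.62 for MRPS30, -0.62 for IMPDH2 and -0.55 for WARS. The sterol, fatty acid and xenobiotic genes gave 0.85 for SCD, 0.64 for CYP3A5, 0.59 for INSIG1 and 0.51 for LSS, and the remaining genes 0.99 for HIST1H1D, 0.89 for JUN, -0.69 for DLK1, 0.59 for BCL2L11, -0.57 for STAT5A, 0.56 for ICAM1, -0.42 for PFKFB3 and 0.33 for BRD2.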

How the results depend on the processing

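Counts of calls at 5 µM moved by over 1.5 times when only the groups compared were fitted (3921 lower and 3355 higher), when replicates were left out (1242 to 3834 lower, 790 to 3220 higher) and when the length trend was removed without replicate 1 of 2 µM CBP30, a choice made after seeing the data (3332 higher). At 2 µM the counts were 54 and 32 with only the groups compared, 302 to 3380 lower and 197 to 3725 higher with a replicate left out, and 2014 lower and 1912 higher with length and GC trends removed. Genes called alike at both concentrations were 83 with only the groups compared, 2050 without the length trend, 2451 without length and GC trends, 2041 with length correction and block, 2483 with length correction and without replicate 1 of 2 µM CBP30, and 413 to 2159 with a replicate left out. Called interactions were 491 with no filter, 632 with small RNA genes, 270 with only the groups compared, 2054 without length and GC trends, 1960 with length correction and without replicate 1 of 2 µM CBP30, and 55 to 7176 with a replicate left out. No setting called a gene in the opposite direction at 5 µM, but all settings reuse most or all of the same samples, so a reversal was unlikely from the outset. FPKM hold no counts, so the limit that depth sets is unknown.

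The replicate block gave 2345 lower and 1764 higher genes at 5 µM, 1146 and 979 at 2 µM and 1079 alike, and moved the interactions to 703. At 2 µM the correlation of same-numbered samples was -0.28, and a block with crossed pairing, chosen after seeing the data, gave 2527 and 1940, 1474 and 1350, 1281 and 2047. Quantile normalization gave 1653 interactions.

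Of 2130 values of named genes under alternatives 2104 kept their direction and side of the threshold, 10 fell below it, 12 passed it and 4 changed sign. The latter were all for TET1 (-0.038 without the length trend, with or without the block or replicate 1 of 2 µM CBP30, and -0.067 without length and GC trends). The settings reuse the same samples, and the 12 largest falls and rises were picked for keeping their call after the length correction. The share that kept its direction is therefore a description and not a check.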

Other observations

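LOC283214, which the naming rule left out for want of a transcript length and which was chosen after its values were seen, was at 13.7 and 12.01 FPKM with 5 µM I-CBP112 and at 8.38 and 13.96 with 2 µM I-CBP112, and it was listed at 0 in both DMSO samples, both samples with 5 µM CBP30 and 1 sample with 2 µM CBP30, the other being at 0.0599. A listed 0 need not mean that the gene was silent: the table holds no counts, and it also lists EEF1A1, which every cell uses, at 0 in replicate 1 of 2 µM CBP30. No fold is given for that reason. SNAR-H, a small noncoding RNA chosen in the same way, was listed at 0 in all 4 CBP30 samples, at 21.5 and 10.99 FPKM with 5 µM I-CBP112 and at 25.6 and 17.0 with 2 µM I-CBP112. Its DMSO samples disagreed, at 15.1 FPKM and at 0, so that its level without a compound is uncertain, and its zeros have the same limit. With CBP30 highest instead, AIM1, left out for the same reason and chosen in the same way, was at 12.9 and 12.9 FPKM with 5 µM CBP30 and at 2.91 and 2.89 with 5 µM I-CBP112, with DMSO at 1.04 and 1.06.

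Lysosome genes were higher with 5 µM CBP30 than with I-CBP112 in 10 of 31 and lower in 3 (median 0.057). With the length trend removed they were higher in 16 and lower in 3. Over all genes 14.9% were higher and 19.3% lower, and 21.2% and 22.4% with that trend removed. NPC2, which carries cholesterol out of lysosomes, was at 60.4 and 63.4 FPKM with CBP30 and at 36.2 and 33.8 FPKM with I-CBP112, with DMSO at 19.3 and 18.7 FPKM (0.81 ± 0.12, adjusted p = 0.00158). Without 1 of the samples at 5 µM between 4 and 5 lysosome genes were higher and between 0 and 1 lower, and without either replicate of 2 µM CBP30 14 were higher and 7 lower. In actin cytoskeleton and adhesion 9 of 38 genes were higher and 4 lower (all genes: 14.9% and 19.3%), with S100A10, a partner of annexin A2, at 1.34 ± 0.19. These were 19 higher and 6 lower with the length trend removed, 4 to 5 higher and 1 lower without 1 sample at 5 µM, and 16 higher and 9 lower without either replicate of 2 µM CBP30.

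Of 30 glycolysis genes 6 were lower and 3 higher, which is near the shares of all genes (19.3% lower and 14.9% higher). They were 8 and 6 with the length trend removed, 7 and 10 after quantile normalization and 12 and 5 without either replicate of 2 µM CBP30. The pyruvate kinase gene listed as PKM2 was at 561.6 and 565 FPKM with CBP30 and at 272 and 268 FPKM with I-CBP112 (1.06 ± 0.10, adjusted p = 0.000136), against 176 and 174 FPKM with DMSO, while PFKFB3, an activator of phosphofructokinase, differed by -0.79 ± 0.065. DLK1, an oncofetal inhibitor of differentiation, was at 7.11 and 7.29 FPKM with CBP30 and at 21.6 and 21.4 FPKM with I-CBP112 (-1.46 ± 0.079, adjusted p = 7.58e-06). Proteasome genes gave 2 lower and 3 higher of 36, and interferon response genes 2 lower and 3 higher of 23. Neither list was above the shares of all genes (19.3% lower and 14.9% higher). More of both lists were called without either replicate of 2 µM CBP30, as over all genes.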
